A study of Neurospora crassa with 24 samples.

Results

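The transcriptome of the *Neurospora crassa* Δ*rco-3* mutant was compared with that of the wild type (WT) after 1 h at 2% glucose. *N. crassa* is a filamentous ascomycete fungus, and the series holds RNA-Seq of Δ*rco-3*, the transcription factor mutant Δ*col-26* and WT, each in medium without carbon source and in 0.05, 0.5 and 2% glucose. The comparison takes the 2 Δ*rco-3* libraries and the 2 WT libraries at 2% glucose, 4 of the 24 libraries, chosen by their strain and medium labels. Of the 9730 loci in the files, 7981 reached a mean of at least 1 FPKM in at least 1 of the 12 groups and were tested. FPKM count the sequenced fragments of a locus relative to its transcript length and to all mapped fragments of the library. The mycelia of both groups came from 16 h cultures in 2% sucrose at 28 °C and were exposed to 2% glucose as the sole carbon source for 1 h. The mutant lacks *rco-3* and is a stock strain of mating type a according to the study's methods, and the WT is the reference stock strain. Each group is 1 strain with 2 independent samples, so the error given here is that between samples of a strain, not between mutant isolates.

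RCO-3 is a membrane protein related to sugar transporters that is known as a glucose sensor and does not itself carry glucose. A fungus with ample glucose normally keeps low-affinity uptake and fermentation genes on. It keeps the genes for scarce or alternative carbon sources off, which is called carbon catabolite repression. High-affinity glucose transporters, invertase and amylases, gluconeogenic enzymes and, in *N. crassa*, the genes of asexual spore formation (conidiation) are known to be held low by glucose. COL-26 is a transcription factor needed for starch use and for the response to glucose.

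The deleted gene was checked before other genes. Values are given for replicate 1 and replicate 2 of each group. *rco-3* (NCU02582, chromosome I, positions 2804910 to 2808507 of the NC12 build) was listed at 0 and 0 FPKM in Δ*rco-3*, against 8.27 and 8.60 FPKM in WT. It was at 0 in all 8 Δ*rco-3* libraries of the series and at 5.97 FPKM or more in the 8 WT libraries, so no Δ*rco-3* or WT library went against its strain label. *col-26* was lower but not absent in the libraries labelled Δ*col-26*, which enter only where named. The next gene on the chromosome is *gla-2* (NCU02583), which encodes a glucoamylase, a secreted enzyme that releases glucose from starch. It stood at 86.9 and 79.6 FPKM in Δ*rco-3*, against 3.44 and 4.02 FPKM in WT. On the other side, NCU02580 stood at 240.6 and 236.4 FPKM in Δ*rco-3*, against 46.2 and 45.9 FPKM in WT, and NCU02579 at 38.4 and 40.2 FPKM in Δ*rco-3*, against 3.61 and 4.06 FPKM in WT. These 3 neighbours were all called higher, whereas NCU02584, the locus beyond *gla-2*, was below 1 FPKM in all 4 libraries. Without carbon source, NCU02580 and NCU02579 had log2 fold changes of −0.78 and −0.73, and *gla-2* differed by 1.13. In the libraries labelled Δ*col-26* at 2% glucose *rco-3* stood at 13.4 and 11.7 FPKM. There NCU02580 had 324.3 and 325.3 FPKM, NCU02579 had 39.4 and 38.5 FPKM, and *gla-2* had 11.1 and 11.1 FPKM. Whether the deletion acts on its neighbours through their position was not tested.

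The mating types of the strains differed, as did 3 genes that mark them. *mfa-1*, the pheromone precursor gene of mating type a, reached 11684 and 11558 FPKM in Δ*rco-3*, against 1.29 and 0.81 FPKM in WT, the largest log2 fold change of the comparison (12.48 ± 0.24, SE). *matA-1*, a mating type gene of the A idiomorph, was listed at 0 in both Δ*rco-3* libraries and at 3.12 and 3.54 FPKM in WT. The pheromone receptor gene *pre-2* stood at 9.94 and 8.94 FPKM in Δ*rco-3*, against 0 and 0.03 FPKM in WT. *mfa-1* was also at 10232 and 9904 FPKM, and *matA-1* at 0 and 0, in the libraries labelled Δ*col-26* at 2% glucose, a strain that the methods also list as mating type a. For any gene, the deletion and other differences between the strains cannot be told apart in this comparison. Of the 7 mating type and pheromone genes in the list, 5 were tested and only *mfa-1* was called. *matA-2* and *matA-3* were at 0 in all 4 libraries.

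The libraries were of even quality by the values deposited. Replicates correlated at 0.998 in Δ*rco-3* and 0.9985 in WT (Pearson, log2 scale, across genes). The root mean square difference between libraries was 0.140 within Δ*rco-3* and 0.124 within WT, against 0.895 to 0.902 between the strains. The 10 most abundant loci held 12.6 and 12.95% of the FPKM in Δ*rco-3*, against 9.53 and 9.59% in WT. The general mycelial genes were abundant in every library: actin (*act*) stood at 1169 and 1155 FPKM in Δ*rco-3*, against 751.4 and 768.1 FPKM in WT. None of the 5 housekeeping genes tested with limma was called, although all 5 had an unadjusted p below 0.05 (4 higher, 1 lower). That p was common here, as 6196 of all 7981 genes tested had it. After quantile normalization of the libraries 1 of the 5 was called lower.

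At 2% glucose, 429 genes were higher in Δ*rco-3* than in WT and 210 were lower, which is 5.38% and 2.63% of the genes tested. A call needed a Benjamini-Hochberg adjusted p below 0.001 from limma, a change of 2-fold or more and a mean above 20 FPKM in either strain. Of the 7981 genes tested, 3700 exceeded that mean. In all 639 genes called, both replicates of 1 strain lay above both of the other. The thresholds of a call make this likely, and it was not counted over all genes, so it adds no support. The increases were larger than the decreases. Among the higher genes 147 changed by at least 2 on the log2 scale and 34 by at least 4, with a median of 1.62, whereas 44 of the lower genes changed by at least 2 and 6 by at least 4, with a median of −1.31. The largest adjusted p among the called genes was 6.32e-07 (limma), and the median SE of their log2 fold changes was 0.052. The median log2 fold change of all genes tested was 0.21, so the split depends on the scaling of the libraries. After median-ratio scaling, which brought that median to −0.04, 284 genes were higher and 405 lower, and after quantile normalization 332 were higher and 336 lower. All 284 genes higher after median-ratio scaling were among the 429, and all 210 lower genes remained lower. A change in the number of cells of a type and a change of RNA per cell cannot be told apart in mycelial RNA.

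**Figure D1:**
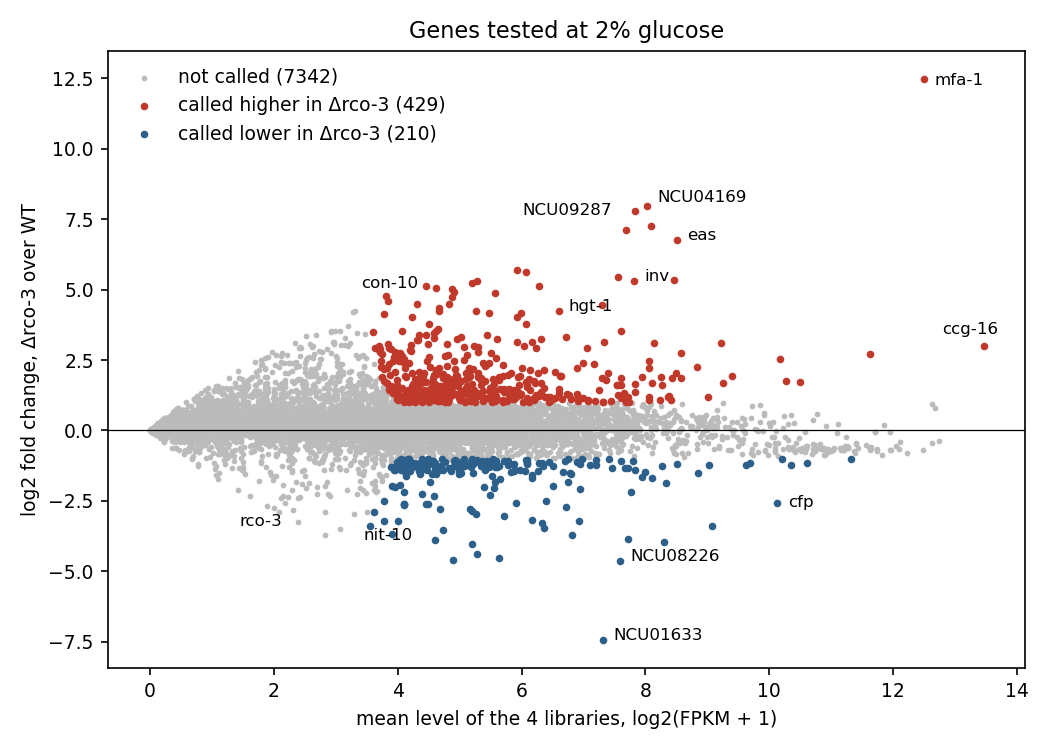
Each point is 1 of the 7981 genes tested, with the mean level of the 4 libraries at 2% glucose on the x axis as log2(FPKM + 1) and the log2 fold change of Δ*rco-3* over WT on the y axis. Red points are the 429 genes called higher in Δ*rco-3*, blue points the 210 called lower, and grey points are not called. *mfa-1* lies highest at 12.48, NCU01633 lowest at −7.43, and *ccg-16* is the most abundant called gene.

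Sugar transporter genes that WT kept almost silent at 2% glucose were expressed in Δ*rco-3*. Of 12 genes listed as sugar transporters or sensors, *rco-3* itself included, 4 were called higher and none lower, as *rco-3* itself lay under the 20 FPKM that a call needs. The low-affinity glucose transporter gene *glt-1* and the high-affinity *hgt-2* could not be matched to an NCU identifier here and are not among the 12, so the counts say nothing of them. The list is partial beyond these genes, as annotation text, by which some members were found, was at hand for only 1060 of the 9730 loci. The counts and the summed level describe the genes listed and not the whole family. NCU09287, which the study names among sugar transporters, stood at 454.6 and 451.7 FPKM in Δ*rco-3*, against 0.96 and 1.11 FPKM in WT (log2 fold change 7.80 ± 0.064, SE). NCU05897, named likewise, stood at 405.5 and 414.2 FPKM in Δ*rco-3*, against 1.61 and 2.32 FPKM in WT (7.12 ± 0.065). Both lay far outside the spread of the replicates. *hgt-1* (NCU10021, chromosome VII, positions 1305454 to 1307833), a high-affinity glucose transporter, stood at 180.4 and 185.6 FPKM in Δ*rco-3*, against 8.66 and 8.69 FPKM in WT, a ratio of 21.1. The sucrose transporter NCU00450 rose less, to 43.9 and 41.8 FPKM in Δ*rco-3*, against 18.6 and 18.5 FPKM in WT, and this call was lost under median-ratio scaling and quantile normalization. The cellodextrin transporters *cdt-1* and *cdt-2*, which carry the sugars released from cellulose, passed the p-value and fold thresholds but stayed under the 20 FPKM a call needed. *cdt-1* had 19.0 and 19.98 FPKM in Δ*rco-3*, against 2.92 and 3.05 FPKM in WT, and *cdt-2* had 9.85 and 10.2 FPKM in Δ*rco-3*, against 0.27 and 0.52 FPKM in WT. The sugar transporter NCU00821 differed by 0.86 on the log2 scale, and the monosaccharide transporter NCU00809 had an adjusted p of 0.39 (limma). The summed level of the 12 genes was 1221 and 1228 FPKM in Δ*rco-3*, against 99.7 and 98.8 FPKM in WT.

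Some enzymes that release glucose from other sugars were higher as well. Of 12 starch and sucrose hydrolases tested, 3 rose and none fell. Invertase (*inv*), which splits sucrose, stood at 446.6 and 433.2 FPKM in Δ*rco-3*, against 10.4 and 9.84 FPKM in WT, a ratio of 43.5. The glucosidase family gene *gh31-3* had 47.6 and 46.7 FPKM in Δ*rco-3*, against 1.38 and 1.69 FPKM in WT, and with *gla-2* these were the 3 genes called. The other glucoamylase gene, *gla-1*, stood at 15.3 and 16.3 FPKM in Δ*rco-3*, against 6.85 and 7.29 FPKM in WT, under the minimum of a call. The amylase family gene *gh13-2*, also under it, stood at 0.02 and 0 FPKM in Δ*rco-3*, against 1.35 and 1.44 FPKM in WT. Trehalase (*tre-1*), which splits the storage sugar trehalose, was the only called gene of 5 for glycogen and trehalose, at 49.1 and 46.1 FPKM in Δ*rco-3*, against 1.23 and 1.5 FPKM in WT. *inv*, *gh31-3* and *tre-1* each overlap another locus, so reads could be shared between the overlapping loci. The same limit holds for 176 of the 639 genes called, *ace-8*, *pgk*, *emp-3*, *acw-12*, *tca-5* and *nde-1* among them. The values of *inv*, *gh31-3*, *gla-2* and *tre-1* did not overlap between the strains. This held for all 639 genes called and is not particular to these.

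Genes for plant cell wall polymers stayed low in both strains. Of 40 listed, 34 were tested with limma and 0 were called, as none exceeded 20 FPKM. At an unadjusted p below 0.05 (limma), which 6196 of all 7981 genes tested passed, 19 were higher and 5 lower. Their summed level was 110.6 and 107.1 FPKM in Δ*rco-3*, against 67.7 and 69.0 FPKM in WT. The most abundant member, the beta-glucosidase family gene *gh3-2*, stood at 12.9 and 12.6 FPKM in Δ*rco-3*, against 6.81 and 7.0 FPKM in WT. Of 10 genes for pentose and quinate use, 0 were called. At an unadjusted p below 0.05 (limma), which most genes tested passed, 8 of these 10 were higher. Xylose reductase (*xr*) lay at 19.7 and 20.1 FPKM in Δ*rco-3*, against 6.11 and 7.05 FPKM in WT.

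**Figure D2:**
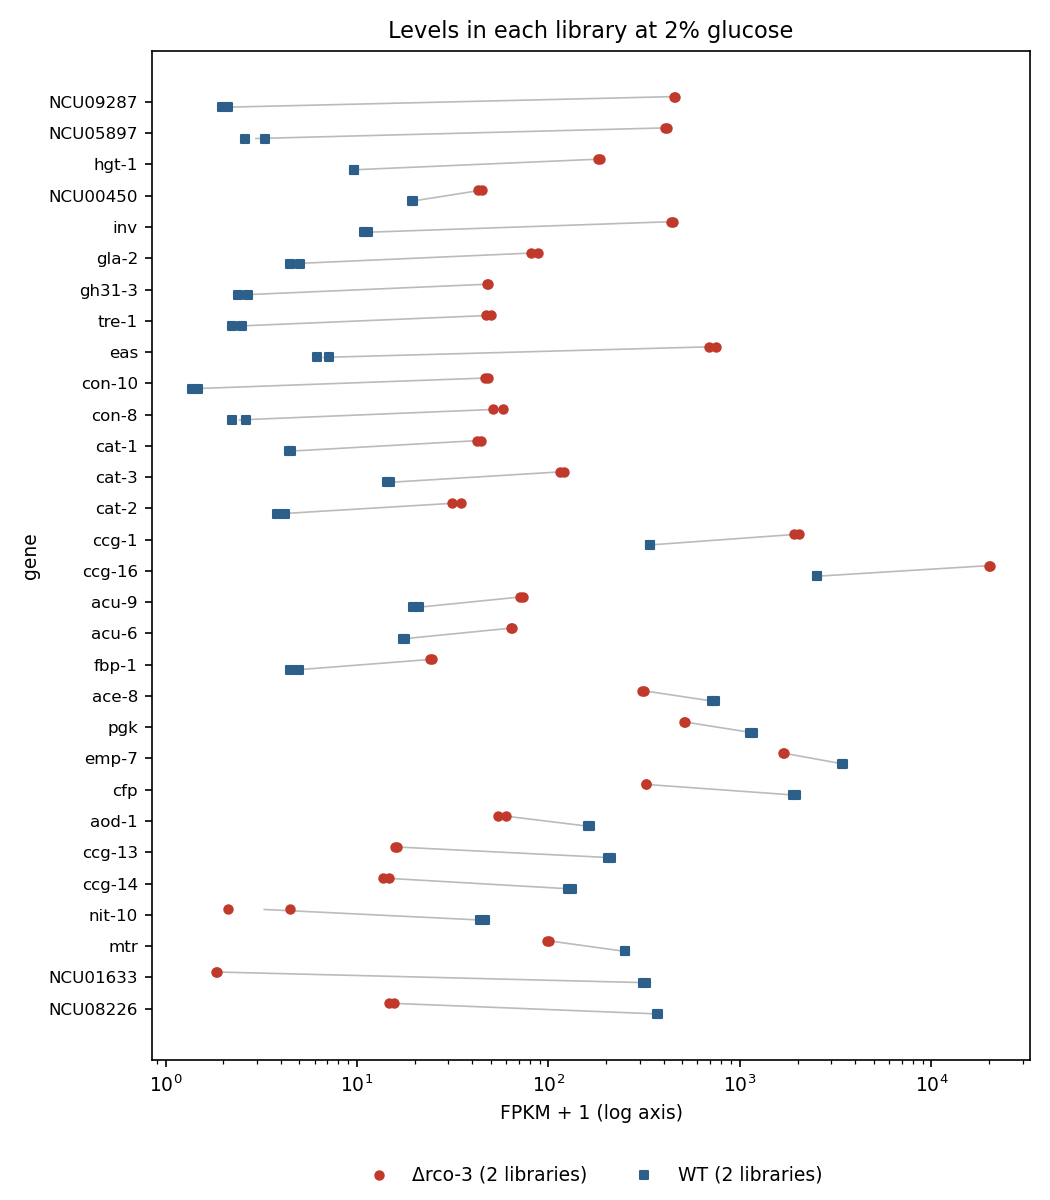
FPKM + 1 of 30 genes in each library at 2% glucose on a log axis, with red circles for the 2 Δ*rco-3* libraries, blue squares for the 2 WT libraries and a grey line joining the means of the strains. The replicates lie close together beside the gap between strains, except for *nit-10*, which had 1.11 and 3.45 FPKM in Δ*rco-3*.

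Some genes of glycolysis and ethanol fermentation were lower in the mutant, and some of gluconeogenesis were higher. Of 12 glycolytic genes, 5 fell and none rose, with a median log2 fold change of −0.61. At an unadjusted p below 0.05 (limma), which 6196 of all 7981 genes tested passed, 9 were lower and 3 higher. Pyruvate kinase (*ace-8*), the last enzyme of glycolysis, stood at 314.7 and 306.3 FPKM in Δ*rco-3*, against 717.4 and 735.8 FPKM in WT. Phosphoglycerate kinase (*pgk*) had 514.2 and 507.5 FPKM in Δ*rco-3*, against 1124 and 1165 FPKM in WT. The Embden-Meyerhof pathway genes *emp-3*, *emp-6* and *emp-7* were the other members called, with log2 fold changes of −1.10, −1.18 and −1.02. These decreases were near 2-fold, and 6 genes were called under median-ratio scaling and 3 under quantile normalization, where *pgk* and *emp-7* missed the fold threshold. The summed level of the 12 genes was 8882 and 8923 FPKM in Δ*rco-3*, against 14744 and 15059 FPKM in WT. *cfp*, which encodes pyruvate decarboxylase, the enzyme that directs pyruvate to ethanol, fell 5.98-fold, to 321.5 and 321.7 FPKM in Δ*rco-3*, against 1891 and 1958 FPKM in WT. Alcohol dehydrogenase (*adh-1*) had 428.7 and 428.8 FPKM in Δ*rco-3*, against 671.6 and 677.0 FPKM in WT, less than the 2-fold that a call needed.

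Of 7 genes for the glyoxylate cycle and gluconeogenesis, the routes that make sugar from acetate, 3 rose and none fell, and the acetyl-CoA synthetase gene *acu-5* was the 1 member with a negative log2 fold change (−0.53). Fructose-1,6-bisphosphatase (*fbp-1*), an enzyme of gluconeogenesis only, stood at 23.1 and 23.8 FPKM in Δ*rco-3*, against 3.98 and 3.46 FPKM in WT. Phosphoenolpyruvate carboxykinase (*acu-6*) had 62.6 and 63.7 FPKM in Δ*rco-3*, against 16.8 and 16.3 FPKM in WT, and malate synthase (*acu-9*) had 70.4 and 72.7 FPKM in Δ*rco-3*, against 18.7 and 20.03 FPKM in WT. Isocitrate lyase (*acu-3*), the other enzyme of the glyoxylate cycle, stood at 26.9 and 26.4 FPKM in Δ*rco-3*, against 18.9 and 19.3 FPKM in WT and was not called. Most mitochondrial genes were not called. Of 20 genes for pyruvate dehydrogenase and the TCA cycle 2 rose, *tca-2* (1.39) and *tca-5* (1.09), which is 10%, against 5.38% of all genes tested. The call of *tca-5* was lost under median-ratio scaling and quantile normalization. With median-ratio scaling 1 of the 20 was higher and 2 were lower. Of 40 respiratory chain and ATP synthase genes 1 fell (2.5%, against 2.63% of all genes tested). That gene, cytochrome *c* (*cyc-1*), stood at 796.4 and 771.8 FPKM in Δ*rco-3*, against 1587 and 1584 FPKM in WT, at the edge of a call, which was lost under quantile normalization and without 1 Δ*rco-3* library (−0.99). Of 8 genes for enzymes that bypass parts of the chain, 2 fell and 1 rose. The alternative oxidase gene *aod-1* had 53.7 and 58.9 FPKM in Δ*rco-3*, against 159.4 and 163.7 FPKM in WT, and *ndi-1* of the alternative NADH dehydrogenases fell by 2.18 on the log2 scale, whereas *nde-1* rose by 1.21. Under median-ratio scaling the call of *nde-1* was lost (0.92), and 0 of the 8 were higher and 3 lower.

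Some genes that mark conidiation were higher, and its regulators *fl*, *acon-2*, *acon-3* and *rca-1* were not called. Of 11 genes, 4 rose and none fell. *eas*, which encodes the hydrophobin that coats conidia, stood at 689.2 and 752.1 FPKM in Δ*rco-3*, against 6.16 and 5.19 FPKM in WT (log2 fold change 6.76 ± 0.058, SE). *con-10* had 47.4 and 45.8 FPKM in Δ*rco-3*, against 0.48 and 0.38 FPKM in WT, and *con-8* had 50.5 and 56.6 FPKM in Δ*rco-3*, against 1.22 and 1.64 FPKM in WT. Both are genes named for their expression in conidiating cultures. The fourth gene, *csp-1*, stood at 32.6 and 32.8 FPKM in Δ*rco-3*, against 15.8 and 14.7 FPKM in WT, and its call was lost under median-ratio scaling, quantile normalization and a pseudocount of 5. The other conidial markers stayed low, with *con-6* at 1.69 and 1.38 FPKM in Δ*rco-3*, against 0.24 and 0.16 FPKM in WT, and *con-13* at 0.35 FPKM in both Δ*rco-3* libraries and at 0 in both WT libraries. The regulator of conidiation *fl* had 5.88 and 5.45 FPKM in Δ*rco-3*, against 4.40 and 5.43 FPKM in WT. The summed level of the 11 genes was 912.2 and 976.7 FPKM in Δ*rco-3*, against 108.9 and 108.6 FPKM in WT, and the share of conidiating cells in the mycelia was not tested. Of 5 carotenoid genes only *al-1*, which encodes phytoene desaturase, rose, to 38.8 and 37.3 FPKM in Δ*rco-3*, against 13.5 and 14.8 FPKM in WT.

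The clock-controlled genes changed in both directions, and the clock itself was not called. Of 16 genes listed, 2 rose and 2 fell. *ccg-16* was the most abundant gene of the mutant, at 20028 and 20200 FPKM in Δ*rco-3*, against 2530 and 2540 FPKM in WT. *ccg-1*, long known as a glucose-repressible gene, stood at 1910 and 2041 FPKM in Δ*rco-3*, against 338.3 and 338.2 FPKM in WT. *ccg-13* fell to 14.9 and 15.2 FPKM in Δ*rco-3*, against 203.5 and 210.9 FPKM in WT, and *ccg-14* fell to 13.7 and 12.7 FPKM in Δ*rco-3*, against 125.8 and 130.9 FPKM in WT. The clock gene *frq* had 26.3 and 25.6 FPKM in Δ*rco-3*, against 28.0 and 28.8 FPKM in WT. Of 29 cell wall proteins and synthases 4 rose, all of them cell wall proteins and not synthases, and none fell, with 3 higher under median-ratio scaling. *acw-12* had 1087 and 1044 FPKM in Δ*rco-3*, against 123.6 and 120.7 FPKM in WT, and *acw-6* had 2121 and 2324 FPKM in Δ*rco-3*, against 664.4 and 693.4 FPKM in WT.

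Catalases rose, and superoxide dismutases were not called. Of 6 antioxidant enzymes 3 rose and none fell, with a median log2 fold change of 1.90. *cat-3*, a secreted catalase of growing mycelium, stood at 114.1 and 118.9 FPKM in Δ*rco-3*, against 13.9 and 13.3 FPKM in WT. *cat-1*, the catalase of conidia, stood at 41.5 and 43.2 FPKM in Δ*rco-3*, against 3.43 and 3.52 FPKM in WT, and the catalase-peroxidase *cat-2* had 33.8 and 30.5 FPKM in Δ*rco-3*, against 3.22 and 2.81 FPKM in WT. *sod-1* differed by 0.42 and *sod-2* by 0.69. Among 11 heat shock proteins 1 rose, the endoplasmic reticulum chaperone *grp78* (1.19), and 1 fell, *hsp70-2* (−1.22), and the call of *grp78* was lost under median-ratio scaling and both calls under quantile normalization.

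Several groups shifted together by less than 2-fold. All 29 proteasome genes were higher at an unadjusted p below 0.05, with a median of 0.67 on the log2 scale, against 0.21 over all genes tested, and 0 were called by limma. *pca-1* had 325.3 and 329.1 FPKM in Δ*rco-3*, against 184.8 and 181.8 FPKM in WT. All 11 cytosolic ribosomal protein genes were lower at an unadjusted p below 0.05, with a median of −0.61, and 0 were called. In either direction, 6196 of all 7981 genes tested passed that p (limma). *crp-7* had 3355 and 3484 FPKM in Δ*rco-3*, against 5143 and 4981 FPKM in WT. Under median-ratio scaling the medians were 0.38 and −0.91, so the directions held, and 1 of the 11 ribosomal protein genes was called lower. Of 20 genes of peroxisome biogenesis 2 rose, *pex11* (1.89) and *pex4* (1.09). The call of *pex4* was lost under median-ratio scaling (0.80), quantile normalization (0.89) and a pseudocount of 5 (0.96) and without 1 Δ*rco-3* library (0.99).

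Nitrogen genes moved in both directions, with 2 of 14 higher and 2 lower (14.3% each, against 5.38% and 2.63% of all genes tested). Under median-ratio scaling 2 were higher and 4 lower. *pmg*, an amino acid permease gene, stood at 764.9 and 748.2 FPKM in Δ*rco-3*, against 155.5 and 157.1 FPKM in WT. *gdh-1*, the NAD-dependent glutamate dehydrogenase that releases ammonium, stood at 50.5 and 47.4 FPKM in Δ*rco-3*, against 14.04 and 13.36 FPKM in WT. The nitrate transporter gene *nit-10* fell to 1.11 and 3.45 FPKM in Δ*rco-3*, against 42.7 and 45.5 FPKM in WT, with the widest error of the named genes (−3.88 ± 0.35, SE). The neutral amino acid permease gene *mtr* fell to 99.9 and 96.9 FPKM in Δ*rco-3*, against 249.6 and 250.8 FPKM in WT. The ammonium transporter gene NCU01065, which is not on the list and overlaps another locus, was also lower, at 7.97 and 7.64 FPKM in Δ*rco-3*, against 67.1 and 68.0 FPKM in WT. Of 38 genes of amino acid synthesis 1 rose, *ilv-5* (2.19), and none fell, though 1 was called lower under median-ratio scaling and 1 under quantile normalization.

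The largest decreases were in genes without a symbol. NCU01633 (chromosome II, positions 2887726 to 2890393), which no table used here names, stood at 0.86 and 0.83 FPKM in Δ*rco-3*, against 309.6 and 323.7 FPKM in WT, a 375-fold difference (log2 fold change −7.43 ± 0.10, SE). NCU08226 had 14.6 and 13.6 FPKM in Δ*rco-3*, against 366.6 and 371.5 FPKM in WT. NCU00754, annotated as a multidrug resistant protein, had 1.46 and 1.25 FPKM in Δ*rco-3*, against 55.4 and 57.0 FPKM in WT. NCU00848, an integral membrane protein, NCU04942 and the ascus development gene *asd-1* fell by 4.02, 3.54 and 3.22 on the log2 scale. Of the higher genes without a symbol, NCU04169 had the largest change, at 500.2 and 536.5 FPKM in Δ*rco-3*, against 1.38 and 0.85 FPKM in WT. Formate dehydrogenase (*fdh*) had 299.6 and 304.1 FPKM in Δ*rco-3*, against 12.9 and 12.7 FPKM in WT. Of the 639 genes called, 495 had neither a symbol nor an annotation in the tables used. Annotation text was at hand for only 1060 of the 9730 loci, so this count does not show how many of the genes are uncharacterised.

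Among 20 regulators and signalling genes of carbon use, *col-26* was the only gene called, at 46.4 and 45.3 FPKM in Δ*rco-3*, against 16.7 and 18.1 FPKM in WT (1.35 ± 0.066, SE). The repressor gene *cre-1* had 65.1 and 64.8 FPKM in Δ*rco-3*, against 52.0 and 50.9 FPKM in WT (0.33, near the median of all genes). This share of members called, 5% higher, stood beside 5.38% of all genes tested. Of the 20 members 15 exceeded 20 FPKM, against 3700 of the 7981 genes tested, so a larger part of them could be called. Under median-ratio scaling, and likewise under quantile normalization, 1 member was called higher and 1 lower. Moreover, 2 regulators of plant cell wall use, named here after their values were seen, passed the thresholds except for abundance. *xlr-1* had 15.8 and 13.98 FPKM in Δ*rco-3*, against 1.05 and 0.79 FPKM in WT, and *clr-1* had 17.6 and 16.7 FPKM in Δ*rco-3*, against 6.01 and 5.93 FPKM in WT.

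Read against the 5.38% of all genes that were higher, the share called higher was 50% of the antioxidant enzymes, 42.9% of the glyoxylate and gluconeogenesis genes, 36.4% of the conidiation genes, 33.3% of the sugar transporters and 25% of the starch and sucrose hydrolases. Read against the 2.63% that were lower, 41.7% of the glycolytic genes were lower. Only 3700 of the 7981 genes tested exceeded 20 FPKM and could be called, so the shares among those are higher than 5.38% and 2.63%. Above that level were 7 of 7 glyoxylate and gluconeogenesis genes, 11 of 12 glycolytic genes and 5 of 6 antioxidant enzymes. The same held for 6 of 11 conidiation genes, 5 of 12 sugar transporters and 5 of 12 hydrolases. The lists are short, and these shares were not tested. The lists were also chosen with earlier results of these data known. NCU05897 and NCU09287 are on the sugar transporter list because the study names them. It names both among transporters whose response to glucose was impaired in the mutant in these same data. The share of sugar transporters is therefore partly circular, and no enrichment is concluded from it.

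**Figure D3:**
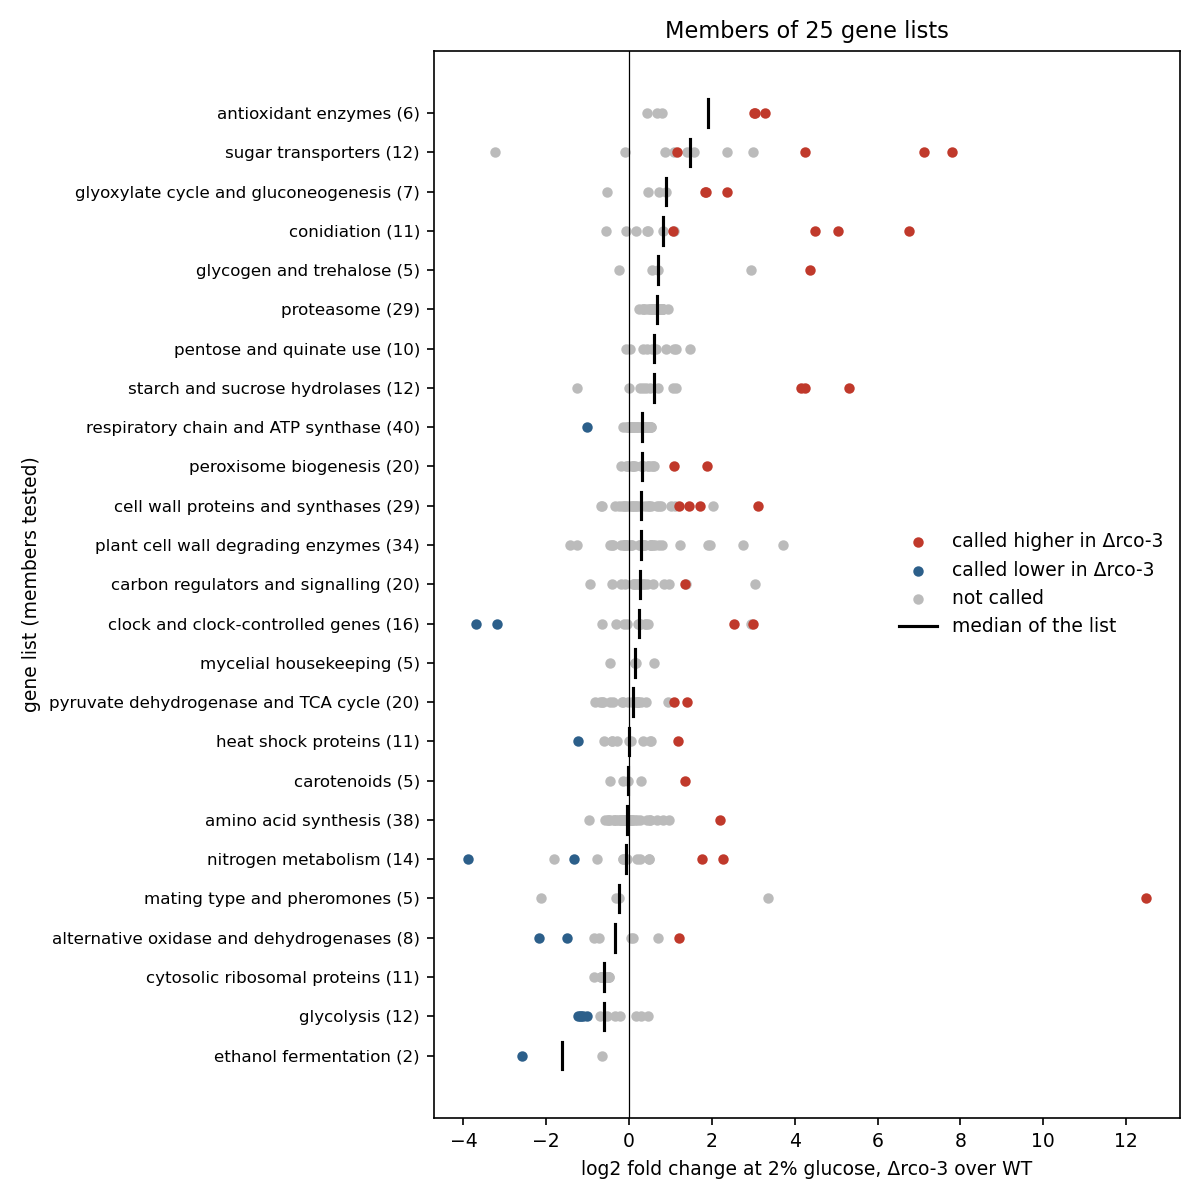
Log2 fold change of Δ*rco-3* over WT at 2% glucose for the members tested of 25 gene lists, ordered by the median of the list (black bar). Red points were called higher in Δ*rco-3*, blue points lower and grey points not called. Antioxidant enzymes (median 1.90) and sugar transporters (1.48) stand at the top, and glycolysis (−0.61) and ethanol fermentation (−1.61) at the bottom.

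The genes called at 2% glucose were then followed in the other cultures of the same strains, which share no library with the comparison. At 0.5% glucose, 265 of the 429 higher genes were called higher again, which is 61.8% of them and 74.2% of the 357 genes higher in that medium, where 4.47% of all genes were higher and 2% lower. Of the 210 lower genes 102 were called lower again (48.6% of them and 63.8% of 160). None was called in the opposite direction. The shares of all genes given here include genes under the 20 FPKM that a call needs. At 0.05% glucose, where 9.25% of all genes were higher and 3.02% lower, 262 of the higher genes (61.1% of them and 35.5% of 738) and 51 of the lower genes (24.3% of them and 21.2% of 241) were called in the same direction. There 13 of the higher genes were lower in the mutant, *inv* and *hgt-1* among them. Without carbon source the shared calls were few. In that medium 1.92% of all genes were higher and 2.16% lower, and 46 of the 429 (10.7% of them and 30.1% of 153) and 18 of the 210 (8.57% of them and 10.5% of 172) were called in the same direction, while 29 of the higher genes were called lower. In all 3 glucose media 197 of the higher genes (45.9%) and 41 of the lower genes (19.5%) were called. Only at 2% were 93 of the higher genes (21.7%) and 94 of the lower genes (44.8%) called, though a gene missing a threshold elsewhere was not thereby shown to differ.

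Over the 4 media several of these genes spanned a narrower range in Δ*rco-3* than in WT. *hgt-1* had means of 499.4, 270.3, 256.6 and 183.0 FPKM in Δ*rco-3* at no carbon source, 0.05, 0.5 and 2% glucose, against 2768, 632.2, 18.8 and 8.68 FPKM in WT. *inv* had means of 388.2, 413.7, 417.6 and 439.9 FPKM in Δ*rco-3* in the same media, against 942.6, 3164, 24.2 and 10.1 FPKM in WT. Invertase was close to level in the mutant, and in WT it was high at no or scarce glucose and low at ample glucose. *cfp* had means of 142.1, 374.5, 388.9 and 321.6 FPKM in Δ*rco-3*, against 96.0, 4127, 2843 and 1924 FPKM in WT. NCU01633 stayed at or below 2.31 FPKM in every Δ*rco-3* library and peaked at 4976 and 4936 FPKM in WT at 0.05% glucose. *con-10* was higher in the mutant in all 4 media, with log2 fold changes of 3.97, 5.35, 5.16 and 5.06 at no carbon source, 0.05, 0.5 and 2% glucose. *fdh* was called higher at 2% and had log2 fold changes of −0.04, −0.09 and 0.45 without carbon source and at 0.05 and 0.5% glucose, and its effect at 2% exceeded that without carbon source by 4.49.

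**Figure D4:**
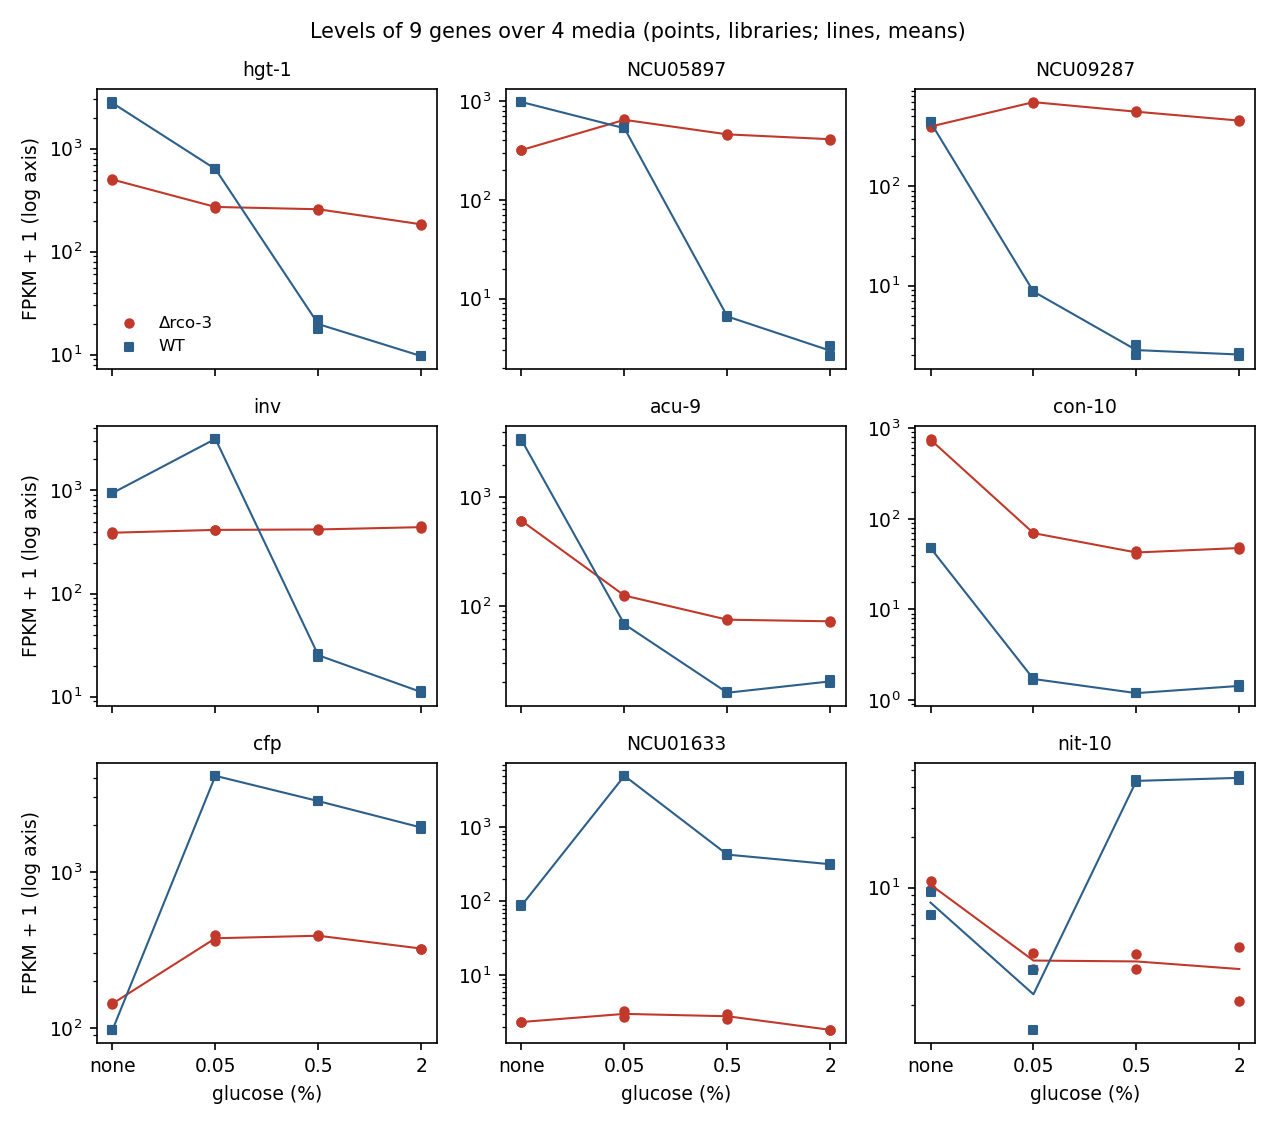
FPKM + 1 on log axes of 9 genes in Δ*rco-3* (red circles) and WT (blue squares) without carbon source and at 0.05, 0.5 and 2% glucose, where points are libraries and lines join means. *hgt-1*, NCU05897, NCU09287 and *inv* are low in WT at 0.5 and 2% glucose, NCU09287 already at 0.05%, and stay above 180 FPKM in Δ*rco-3* in every medium, with *hgt-1* falling to 183.0 FPKM at 2% glucose, and *cfp* and NCU01633 are low in Δ*rco-3* at every glucose concentration.

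The WT response to carbon starvation was used to ask whether the genes called in the mutant at 2% glucose belong to it. WT without carbon source was set against WT at 0.5% glucose, so that no library at 2% glucose entered. In that comparison 16.8% of all genes were higher and 11.2% lower. Of the 7981 genes tested, only 4088 exceeded 20 FPKM in either group and could be called, so the shares among those are higher. Of the 429 genes higher in Δ*rco-3* at 2% glucose, 348 were higher in starved WT (81.1% of them and 25.9% of 1342) and 4 were lower. Of the 210 lower genes, 149 were lower in starved WT (71.0% of them and 16.6% of 895) and 7 were higher. The median log2 change of the 429 genes in starved WT was 2.20, above their median of 1.62 in the mutant, and that of the 210 genes was −3.0, against −1.31 in the mutant. The milder step of WT at 0.05% against WT at 0.5% glucose, in which 3.62% of all genes were higher and 3.85% lower, held 77 of the 429 (17.9% of them and 26.6% of 289) and 68 of the 210 (32.4% of them and 22.1% of 307) in the same direction. Among the 4 higher genes that were called lower in starved WT was *acw-12* (−1.36), which was higher in Δ*rco-3* in every medium.

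**Figure D5:**
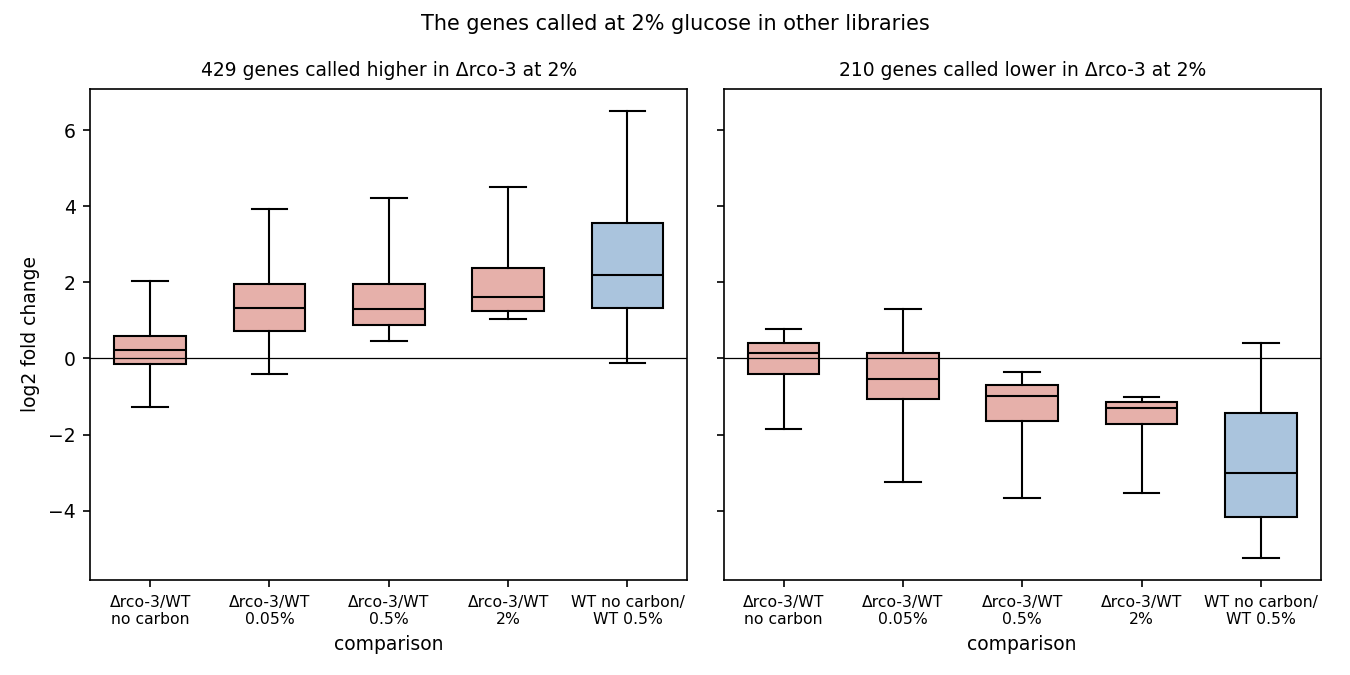
Log2 fold changes of the 429 genes called higher (left) and the 210 called lower (right) in Δ*rco-3* at 2% glucose, for Δ*rco-3* over WT in 4 media (red boxes) and for WT without carbon source over WT at 0.5% glucose (blue box). Boxes show the quartiles, bars the median and whiskers the 5th and 95th percentiles. The values at 2% chose the genes, and the median of the higher genes falls to 0.21 without carbon source, against 2.20 in starved WT.

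The effect of the deletion depended on the medium. The difference between the effect at 2% glucose and the effect without carbon source was tested in the same fit, and 714 genes had a higher effect at 2% glucose (8.95% of the genes tested) and 378 a lower one (4.74%). NCU05897, NCU09287 and *hgt-1* had the largest positive differences (8.74, 7.95 and 6.72 on the log2 scale), and *nit-10*, NCU08226 and NCU04942 the largest negative ones (−4.25, −3.93 and −3.82). The 3 called genes of the glyoxylate cycle and gluconeogenesis reversed: *acu-6*, *acu-9* and *fbp-1* were lower in Δ*rco-3* without carbon source, with log2 fold changes of −2.95, −2.47 and −1.96. The 5 lower glycolytic genes had log2 fold changes between −0.17 and 1.24 there.

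The libraries labelled Δ*col-26* at 2% glucose were set beside Δ*rco-3*, without a test of likeness, since both are compared with the same 2 WT libraries. *col-26* itself stood at 8.20 and 8.21 FPKM in the libraries labelled Δ*col-26*, against 16.7 and 18.1 FPKM in WT, a log2 fold change of −0.997 that was not called, and at 4.91 to 10.6 FPKM in the 8 libraries with that label over all media. The gene was therefore not shown to be absent there, and what follows is given by the label of the libraries. NCU09287 differed by 7.80 in Δ*rco-3* and by 8.42 in Δ*col-26* on the log2 scale, *hgt-1* by 4.25 and 4.03, *inv* by 5.31 and 5.85, and NCU01633 by −7.43 and −6.27. *gla-2* had 86.9 and 79.6 FPKM in Δ*rco-3*, against 11.1 and 11.1 FPKM in Δ*col-26*. *acu-6* had 62.6 and 63.7 FPKM in Δ*rco-3*, against 411.5 and 442.1 FPKM in Δ*col-26*. *aod-1* differed from WT by −1.51 in Δ*rco-3* and by 0.43 in Δ*col-26*. The differences between the mutants were not tested.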

How the data were processed

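RNA-Seq of mycelia was analysed from 24 libraries, 2 for each of 12 combinations of strain and medium, and 4 of them carry the comparison. The values deposited by the authors are FPKM per locus. The authors sequenced on the BGISEQ platform, trimmed reads with Trimmomatic 0.36, aligned them to transcripts predicted from the OR74A genome (Bowtie2 in the paper's methods, HISAT2 2.1.0 in the submitters' processing notes) and counted them with RSEM 1.2.8. Since FPKM are relative to all mapped fragments, abundant genes that change shift the others. Gene symbols and coordinates came from the RefSeq annotation of the NC12 build, which matched all loci but 1.

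Tests used limma 3.58.1 in R 4.3.3 (functions lmFit and contrasts.fit, and eBayes with the trend option) on log2(FPKM + 1), with all 12 groups in 1 fit (12 residual and 6.31 prior degrees of freedom). Fold changes are on that scale, which understates changes of low genes. The Benjamini-Hochberg adjustment ran over 7981 genes with a group mean of at least 1 FPKM. Genes were called at an adjusted p below 0.001, a log2 fold change of 1 or more in size and a mean above 20 FPKM in a group compared. These are the thresholds of the study, whose count test cannot be run on FPKM. The fit was also run on simulated data with changes of 1.3 or more on the log2 scale planted in 200 genes. The simulated libraries had no shift in scaling, so that run cannot show how the calls depend on it.

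Fragment counts are not given, and when low values were divided by the step of their gene, only 71.3% came within 0.15 of a whole number, so counts were not recovered. In 270 genes with clear steps, libraries lay at 97.6 to 103.8% of the median depth.

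The 25 gene lists hold 387 loci in all, named by their symbols, by the study or, for sugar transporters, by annotation text. Annotation text was at hand for only 1060 of the 9730 loci. The sugar transporter list is therefore partial, and the annotated genes named below lean to the loci that had such text. The members and lists were chosen with earlier results of these data known. The text names *rco-3* and its neighbours, *col-26*, the sugar transporters, the called genes that changed most in each direction (10 annotated, 2 not annotated), up to 4 called members of each list (the 2 most abundant where none was called), mating type genes and the 3 genes in each direction whose effect differed most between 2% glucose and no carbon source; other list members are given as examples. Alternatives were other pseudocounts, filters, scalings, thresholds, fits and each library left out. Genes that no table used here pairs with a locus and the other experiments of the study were not analysed here. Scripts ran in Python 3.11.15 with pandas 2.3.3, numpy 2.4.6 and matplotlib 3.10.9.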

Additional observations from a re-analysis of the deposited data

Results flagged for a closer look

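The effect of the *rco-3* deletion differed between 2% glucose and no carbon source in 1092 genes, by a test of the difference itself in limma (adjusted p below 0.001, a difference of at least 1 on the log2 scale and more than 20 FPKM in at least 1 of the 4 groups). The difference is the log2 fold change at 2% glucose minus that without carbon source. NCU05897 had a difference of 8.74, NCU09287 of 7.95 and *hgt-1* of 6.72, and all 3 were higher in Δ*rco-3* than in WT at 2% glucose and not without carbon source. NCU08226 had a difference of −3.93 and NCU04942 of −3.82, as WT itself was at or below 4.75 FPKM without carbon source in both genes. *nit-10* had a difference of −4.25, and its libraries scattered more than those of the other genes named.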

How the results depend on the processing

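The 639 calls at 2% glucose, 429 higher and 210 lower, changed most with the scaling and with the minimum FPKM. Median-ratio scaling gave 284 higher and 405 lower genes, and quantile normalization 336 lower genes. Without the minimum FPKM there were 1227 calls, 891 higher and 336 lower, of which 785 were called in the same direction at 0.5% glucose, 688 at 0.05%, 228 without carbon source and 933 in starved WT, against 367, 313, 64 and 497 with it, and 78 instead of 50 list members were called. With 1 of the 4 libraries left out, the calls numbered 638 to 648, 427 to 434 higher and 204 to 221 lower. The same held for the 1092 genes whose effect differed from that without carbon source (1087 to 1104), for the calls shared with 0.5% glucose (364 to 370), 0.05% glucose (311 to 319), no carbon source (63 to 65) and starved WT (493 to 507), and for the list members called (50). Pseudocounts of 0.1 and 5, filters on low values, no trend in the variance and an adjusted p of 0.05 left every count within 1.5 times. A fit of the 4 libraries alone gave 639 calls and no value for comparisons between media. Among single genes, NCU00450, *tca-5*, *nde-1*, *grp78*, *acw-5*, *csp-1* and *pex4* missed the fold threshold under median-ratio scaling. NCU00450, *tca-5*, *grp78*, *csp-1*, *pex4*, *pgk*, *emp-7*, *cyc-1* and *hsp70-2* missed it under quantile normalization, *csp-1* (0.90) and *pex4* (0.96) with a pseudocount of 5, and *cyc-1* (−0.99) or *pex4* (0.99) without 1 Δ*rco-3* library. No direction was reversed for a called gene. The cause was not tested.

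The replicate numbers did not pair the samples: deviations of replicate 1 from its group mean correlated at 0.0161 across genes between Δ*rco-3* and WT. With the replicate number as a block there were 639 calls.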

Other observations

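Of genes known for fatty acid breakdown, 4 that were chosen after their values were seen were higher in Δ*rco-3* at 2% glucose, and no list of such genes was counted. The acyl-CoA dehydrogenase genes *acd-1* and *acd-3* were at 26.6 and 27.1 FPKM and at 100.5 and 95.7 FPKM in Δ*rco-3*, against 6.52 and 6.24 FPKM and 25.1 and 25.04 FPKM in WT. *fox-2*, a peroxisomal beta-oxidation gene, had 63.2 and 61.4 FPKM in Δ*rco-3*, against 16.8 and 17.4 FPKM in WT. The peroxisomal enoyl-CoA isomerase NCU00299 had 40.8 and 45.0 FPKM in Δ*rco-3*, against 4.03 and 2.19 FPKM in WT, and overlaps another locus. Without carbon source the log2 fold changes of *acd-1* and *fox-2* were −1.71 and −0.93.

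Some genes of ribosome assembly and of hyphal fusion, also named after their values were seen, were lower. The ribosome biogenesis gene NCU00105 had 36.6 and 31.3 FPKM in Δ*rco-3*, against 94.5 and 86.6 FPKM in WT, and pescadillo (NCU00925) had 32.7 and 31.2 FPKM in Δ*rco-3*, against 75.7 and 76.5 FPKM in WT. The transcription factor gene *adv-1*, needed for hyphal fusion and development, had 36.0 and 34.0 FPKM in Δ*rco-3*, against 107.7 and 106.7 FPKM in WT. The fusion gene *ham-9* had 20.02 and 19.48 FPKM in Δ*rco-3*, against 46.9 and 47.2 FPKM in WT. These genes were not tested as groups.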
